A study of Mus musculus with 16 samples.

Results

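Expression of 34 genes that encode the enzymes of nucleotide, one-carbon and polyamine synthesis was examined in RNA sequencing libraries of positively selected germinal center B cells. The genes were taken by symbol from the table of normalized counts, and all 34 were found among its 51912 genes. Tests were run on 12505 genes whose mean normalized count reached 10, and the 34 were all among them. Mice homozygous for a GFP-cMyc fusion made from the endogenous locus (cMyc gfp/gfp, C57BL/6J, male and female, 6 to 15 weeks old) were given 200000000 sheep red blood cells intraperitoneally, and the spleens were taken on day 7. After removal of CD43+ cells, B220+ CD38 low CD95+ germinal center B cells positive for the cMyc-GFP protein were sorted, so every library came from cMyc+ cells. Per the study, early and late cells were taken once prePB and dark zone cells (CXCR4 hi CD86 lo) had been gated out, whereas CXCR4 and CD86 played no part in the gate of prePB. The 4 subpopulations, with 4 libraries each, were cMyc+ prePB (CD69 hi), cMyc+ early (CD23 hi CD21/35 hi), cMyc+ lateCD23int (CD23 int CD21/35 int) and cMyc+ lateCD23lo (CD23 lo CD21/35 lo), written below as prePB, early, lateCD23int and lateCD23lo. The labels leave out whether equal library numbers mark a shared animal or sort and whether animals were pooled. The p-values given here therefore measure only the spread between these libraries.

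Each library held 19812080 to 25795815 reads counted on genes. A normalized count is a read count divided by the library's DESeq2 size factor, and 2.48 to 3.23 normalized counts corresponded to 3 reads. Markers of B cells (5 of 5) and of germinal center B cells (7 of 7) were present at a mean of 10 or more. Of the sort markers, Fcer2a, which encodes CD23, was higher in early than in lateCD23lo (log2 fold change 2.63, limma adjusted p = 0.00434). It was not called in early against lateCD23int (0.72) or in lateCD23int against lateCD23lo (1.91, limma adjusted p = 0.441). Cr2, which encodes CD21/35, was lower in prePB than in early (-1.90, limma adjusted p = 0.0269). It was not called in early against lateCD23int (-0.071) or against lateCD23lo (0.63, limma adjusted p = 0.534). Cd69 in prePB against the other 3 was 0.23 (limma adjusted p = 0.799). The summed level of 5 plasma cell markers, most of it Jchain, was 37257 to 111293 in prePB, 23488 to 30149 in early, 31588 to 59105 in lateCD23int and 56149 to 90119 in lateCD23lo, with 1 of the 5 called in any test. Of 7 T cell markers, 3 reached a mean of 10; the summed level, most of it Lck, was 4491 to 7068 in prePB, 2195 to 3884 in early, 4779.8 to 6576 in lateCD23int and 4017 to 5912 in lateCD23lo, and Cd3e was at 0 in 13 of the 16 libraries. For macrophages and follicular dendritic cells, 6 of 7 markers were in the table and the sum was 282 to 717 in prePB, 201 to 351 in early, 268 to 861 in lateCD23int and 754 to 1427 in lateCD23lo. None of the T cell or macrophage markers was called. For 5 erythroid markers, of which 3 reached a mean of 10, the sum was 119.9 to 1870.2 in prePB, 419 to 1278 in early, 741 to 3011 in lateCD23int and 651 to 946 in lateCD23lo, with none called. The sum of 12 S phase genes was 63889.5 to 83055 in prePB, 55227 to 79294 in early, 61738 to 86737 in lateCD23int and 63024 to 79684 in lateCD23lo, with 0 of 12 called. The sum of 12 G2 and M genes was 65017 to 79527 in prePB, 79559.6 to 97088 in early, 69339.7 to 85816 in lateCD23int and 66844 to 110996 in lateCD23lo, also with 0 of 12 called. Every prePB library lay below every early library in this G2 and M sum, but the highest of prePB (79527) and the lowest of early (79559.6) nearly met. The part of these cells in the values below was not tested, and in sorted bulk samples fewer cells that express a gene and less RNA of that gene per cell cannot be told apart.

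Dividing cells need new nucleotides for DNA and RNA, and they build them from phosphoribosyl pyrophosphate, amino acids, bicarbonate and one-carbon units carried on folate. Serine, taken up or made from a glycolytic intermediate, gives most of these one-carbon units, and S-adenosylmethionine, the methyl donor made from methionine, also feeds the synthesis of the polyamines spermidine and spermine. cMyc is well known as an activator of many of these genes, among them Odc1, Cad, Nme1 and Shmt2, and germinal center B cells that were selected in the light zone express it before they divide.

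Levels of the 34 genes were compared per kilobase of transcript, as mean normalized counts of the 16 libraries. Hprt, the enzyme that recycles hypoxanthine and guanine, stood first with 5700.1 per kilobase and was followed by Nme1 (5642), Paics (3721), Prps1 (3233), Impdh2 (2957) and Mat2a (2223). The value of Nme1 rests on a transcript of 3181 bases, and a shorter transcript would raise it. At the other end were Dhodh (441), Mthfd1l (288), Cad (31.5) and Impdh1 (5.35). Impdh1 was the only member with libraries at or under 3 reads, and this was the case in 7 of 16 libraries. Together the members took between 0.417% of the normalized counts in the lateCD23lo library 1 and 0.703% in the prePB library 2.

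**Figure D1:**
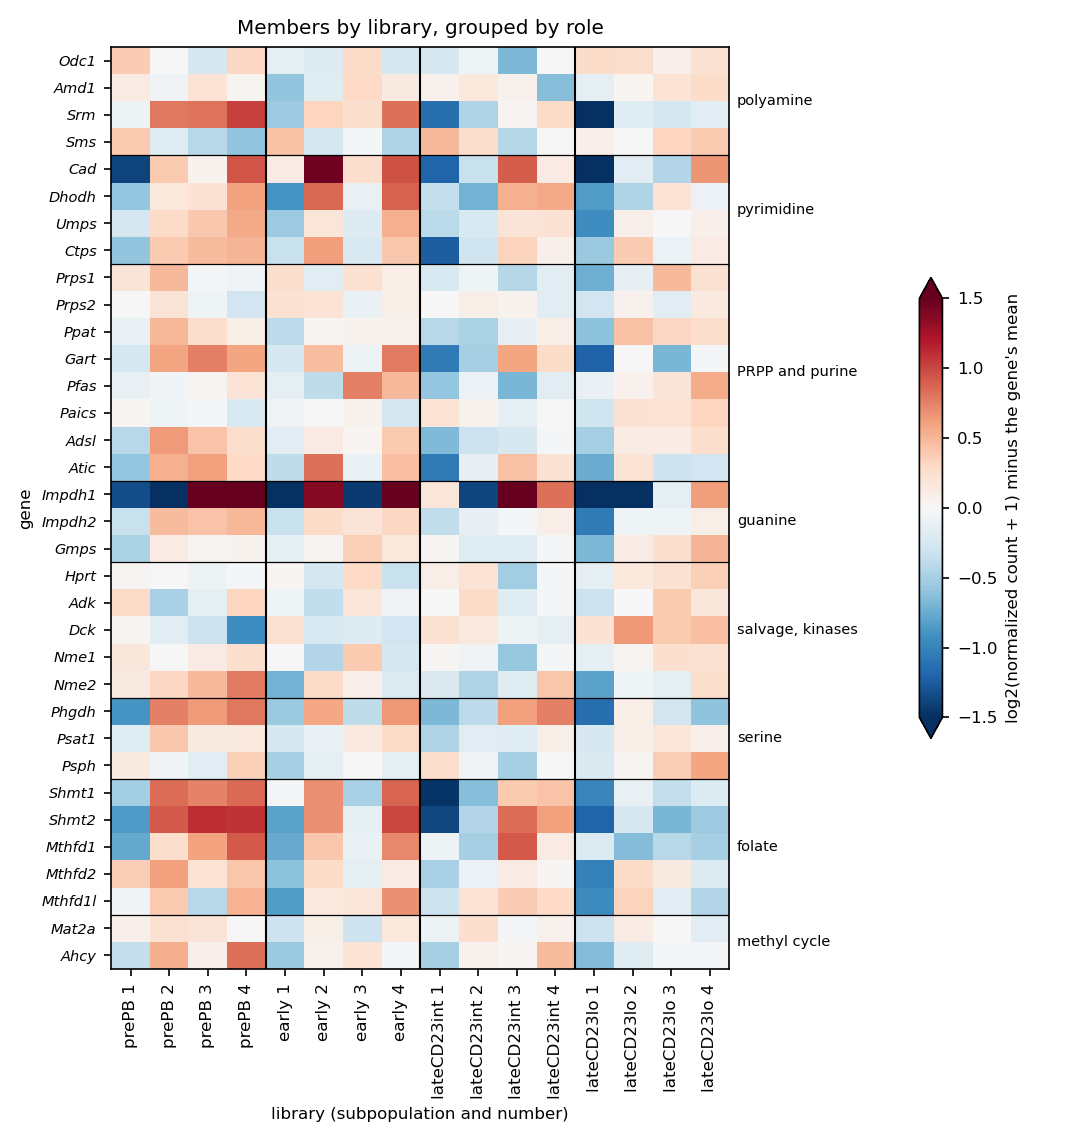
Heat map of the 34 genes (rows, grouped by role) in the 16 libraries (columns), coloured by the difference of log2(normalized count + 1) from the gene's mean. The columns of number 1 are blue for most genes in each subpopulation, and number 1 was the lowest library of its subpopulation in 88 of the 136 combinations of gene and subpopulation.

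Most members had their highest group mean in prePB and their lowest in one of the late subpopulations, but no difference passed the main test, which has no term for the library number. The highest of the 4 means was in prePB for 20 of 34 genes, in lateCD23lo for 8, in early for 5 and in lateCD23int for 1, and the lowest was in lateCD23lo for 18, in lateCD23int for 10 and in prePB and early for 3 each. Such counts were not made over all tested genes, and the members moved together across the libraries, as given below. Across the 4 subpopulations the F test of limma called 0 of 34 members at an adjusted p under 0.05, where it called 0.408% of the 12505 genes. The F tests of edgeR and DESeq2 also called 0, and so did both tools in each of the 5 comparisons. At an unadjusted p under 0.05 the F test of limma gave 2 members, against 10.2% of all genes. These were Dck (limma adjusted p = 0.238) and Srm (limma adjusted p = 0.383).

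In prePB against the other 3 subpopulations, limma called 0 members at an adjusted p under 0.05 (0.312% of all tested genes were called) and 4 at an unadjusted p under 0.05 (11.1% of all genes), with 5 by edgeR and 6 by DESeq2 at that unadjusted threshold. Shares of all genes at an unadjusted p under 0.05, here and below, are those of limma, and none was computed for edgeR or DESeq2. The mean log2 value of 27 members was higher in prePB, with a median log2 fold change of 0.19 over the 34 genes, against 0.0030 over all tested genes, of which 50.3% were higher. As 1 library was left out, the median of the members ranged from 0.15 (without the prePB library 4) to 0.35 (without the prePB library 1). Single members ranged from -0.46 for Dck to 0.85 for Srm. In prePB against early, 0 members were called (background 0.192%), and 1 had an unadjusted p under 0.05 in limma (background 8.58%), 0 in edgeR and 1 in DESeq2. Here 26 members were higher in prePB, with a median of 0.16 against 0.013 over all genes. This median was 0.046 without the early library 1 and 0.24 without the prePB library 1, the ends of its range as 1 library was left out. The libraries of the prePB and early subpopulations overlapped for every member, while they did not overlap for 4.23% of all genes.

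Neither comparison of neighbouring CD23-defined subpopulations gave a called member. In early against lateCD23int, 0 members were called (background 0.008%), and at an unadjusted p under 0.05 the number was 1 in each of limma, edgeR and DESeq2 (limma background 3.71%). There were 21 members higher in early, the median was 0.095 against -0.028 over all genes, and the libraries did not overlap for 0 members (background 2.48%). As 1 library was left out, this median ranged from 0.041 (without the early library 4) to 0.23 (without the early library 1). In lateCD23int against lateCD23lo, 0 members were called (background 0.008%), and 2 had an unadjusted p under 0.05 in limma (limma background 6.28%) and 3 each in edgeR and DESeq2. The libraries did not overlap for 1 member, Odc1 (background 3.77%). Here 18 members were higher in lateCD23int, with a median of 0.069 against 0.016, and without the lateCD23lo library 1 this median was -0.16.

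Over the whole span, early against lateCD23lo, 0 members were called (background 0.28%). The number at an unadjusted p under 0.05 was 1 in limma (limma background 10.3%), 1 in edgeR and 5 in DESeq2. The libraries did not overlap for 0 members (background 6.23%). There were 22 members higher in early, with a median of 0.13 against -0.0053 over all genes and a range from -0.55 for Dck to 1.27 for Cad. Without the lateCD23lo library 1, which held the lowest value of 15 of the 34 genes, the median was -0.071, and without all 4 libraries of number 1 it was 0.027. The median standard error of a member was 0.24.

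**Figure D2:**
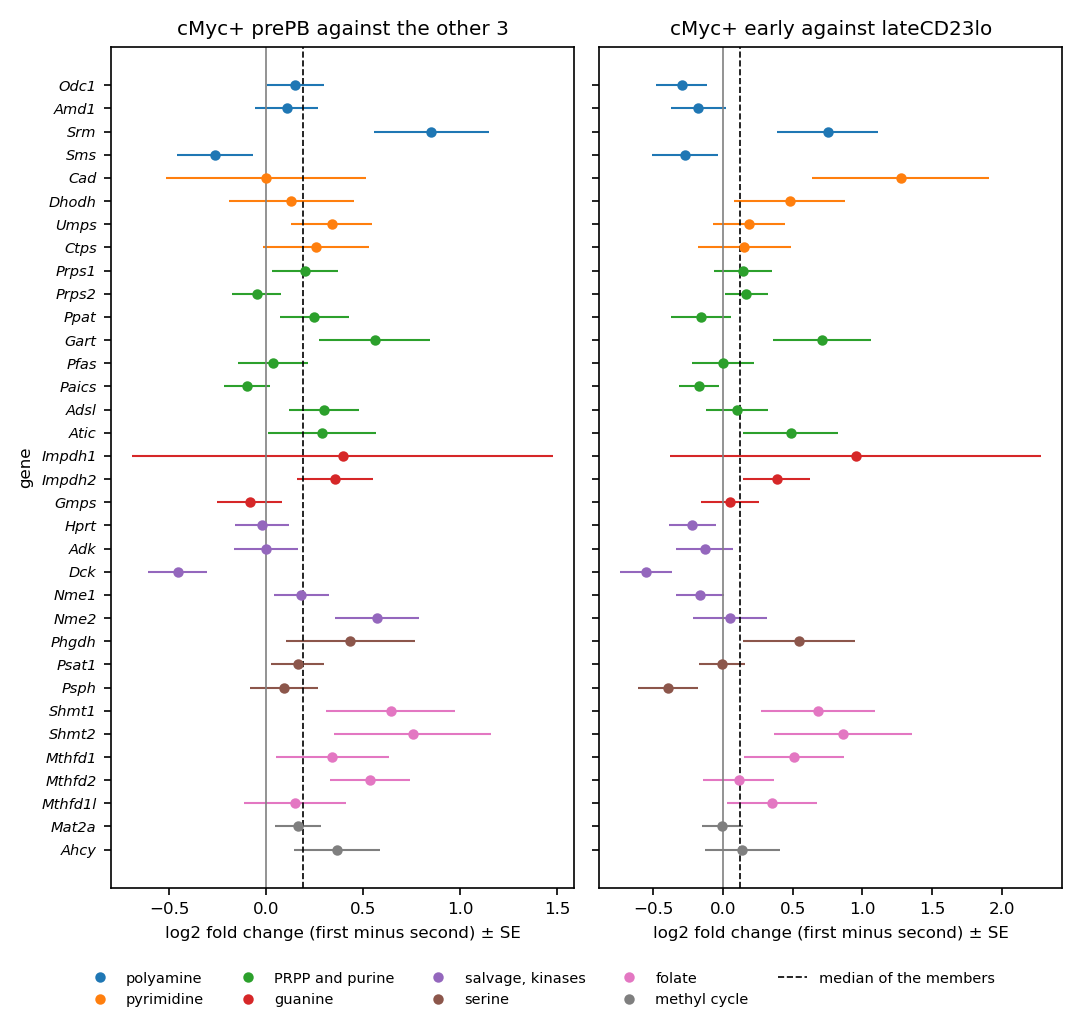
Log2 fold changes of the 34 genes with their standard errors in prePB against the other 3 subpopulations (left) and in early against lateCD23lo (right), coloured by role, with the median of the members as a dashed line. In the left panel Srm, Nme2, Shmt1, Shmt2, Gart and Mthfd2 lie to the right and Dck to the left. In the right panel Srm, Gart, Cad, Impdh1 and Shmt2 lie to the right and Dck to the left.

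Among the 4 genes of polyamine synthesis, Srm followed the order prePB, early, lateCD23int, lateCD23lo, whereas the rate-limiting enzyme Odc1 had its highest mean in lateCD23lo. The summed normalized counts of the 4 genes were 14165 ± 766 in prePB, 12742 ± 1433 in early, 11976 ± 994 in lateCD23int and 13469 ± 1262 in lateCD23lo (SD, n = 4). Srm, which encodes spermidine synthase (chromosome 4, 148591503 to 148594993, plus strand, GRCm38), was measured at normalized counts of 1915, 3486, 3538 and 4106 in prePB, 1381, 2528, 2383 and 3581 in early, 923, 1471, 2071 and 2459 in lateCD23int and 688, 1782, 1681 and 1798 in lateCD23lo, in the order of library number. The prePB libraries 2 to 4 lay above every library of the late subpopulations, and library 1 was the lowest in each subpopulation. Its log2 fold change was 0.85 ± 0.30 (SE; 95% confidence interval 0.23 to 1.47; limma adjusted p = 0.275) in prePB against the other 3 and 0.75 ± 0.36 (SE; limma adjusted p = 0.487) in early against lateCD23lo. The latter was 0.41 without the lateCD23lo library 1. With a term for the library number in the fit, Srm was called in both comparisons (limma adjusted p = 0.0028 and 0.0387). What the numbers stand for is not given in the labels.

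Odc1 makes putrescine from ornithine and had normalized counts of 4657, 3578, 3023 and 4412 in prePB, 3230.0, 3110.4, 4304 and 2962 in early, 3033, 3425, 2232 and 3589 in lateCD23int and 4313, 4292, 3765 and 4189.5 in lateCD23lo. All 4 lateCD23lo libraries were above all 4 of lateCD23int, the only such case among the members in the 4 comparisons of 2 subpopulations, while prePB and early overlapped both. The difference of lateCD23int against lateCD23lo was -0.45 ± 0.18 (SE; 95% confidence interval -0.83 to -0.074; limma adjusted p = 0.754). Amd1, which forms the aminopropyl donor from S-adenosylmethionine, was at normalized counts of 4225, 3754, 4473 and 4012 in prePB, 2582, 3436, 4795 and 4259.5 in early, 4077, 4334, 4057 and 2492 in lateCD23int and 3514, 3981, 4485 and 4701 in lateCD23lo. Its groups overlapped throughout, and reads of Amd1 may be shared with the similar gene Amd2. Sms, the spermine synthase, had mean normalized counts of 2870.5 ± 923 in prePB, 3104 ± 876 in early, 3436 ± 896 in lateCD23int and 3671 ± 473 in lateCD23lo (SD, n = 4). The order of its means was the reverse of that of Srm, and its fold change was -0.26 ± 0.19 (SE; limma adjusted p = 0.645) in prePB against the other 3.

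The summed normalized counts of the 4 genes of pyrimidine synthesis were 9448 ± 2369 in prePB, 8618 ± 2859 in early, 7671 ± 2052 in lateCD23int and 7218 ± 1945 in lateCD23lo (SD, n = 4). All 4 were higher in early than in lateCD23lo, with none called. Cad, whose protein carries the first steps of the pathway, was low, and its libraries differed within each group by more than the group means differed. Its normalized counts were 70.9, 246, 194 and 359.8 in prePB, 204, 515, 223 and 364 in early, 80.6, 148, 352 and 204 in lateCD23int and 35.6, 167, 138 and 297 in lateCD23lo. The lowest library was number 1 in each subpopulation, and all groups overlapped. The fold change in early against lateCD23lo was 1.27 ± 0.63 (SE; 95% confidence interval -0.057 to 2.60; limma adjusted p = 0.498). Dhodh, the mitochondrial dehydrogenase that forms orotate, had mean normalized counts of 929 ± 290.1 in prePB, 1067 ± 546 in early, 900.5 ± 373 in lateCD23int and 704 ± 213 in lateCD23lo. Umps, which turns orotate into UMP, was at a mean of 6566 ± 1472 in prePB, 5583 ± 1775 in early, 5285 ± 1113 in lateCD23int and 4898 ± 1384 in lateCD23lo. Ctps, which makes CTP from UTP, was at a mean of 1736 ± 520.3 in prePB, 1641 ± 531 in early, 1290.0 ± 521 in lateCD23int and 1457 ± 381 in lateCD23lo (SD, n = 4). The fold changes of these 3 genes in prePB against the other 3 were 0.13, 0.34 and 0.26, with adjusted p-values of 0.912, 0.57 and 0.757.

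Of the 8 genes that make phosphoribosyl pyrophosphate and lead from it to inosine monophosphate, the first purine nucleotide, 7 were higher in early than in lateCD23int and 6 were higher in prePB than in the mean of the other 3, and none was called. Their sum was 40554 ± 4188 in prePB, 40225 ± 3949.6 in early, 33616 ± 2449 in lateCD23int and 38607 ± 7846 in lateCD23lo (SD, n = 4). Prps1, a phosphoribosyl pyrophosphate synthetase, had normalized counts of 7099, 8699.9, 6114 and 5983 in prePB, 7474, 5584, 7268 and 6661 in early, 5287, 5929.6, 4612 and 5518 in lateCD23int and 3734, 5700.3, 8693 and 7303 in lateCD23lo. Its largest spread was within lateCD23lo, and the fold change in early against lateCD23int was 0.33 ± 0.21 (SE; limma adjusted p = 1). Prps2, the second synthetase, had the lowest SD of log2 values of the 34 members (0.166), with normalized counts of 2426, 2772, 2313 and 1984 in prePB, 2823, 2794, 2250.2 and 2562 in early, 2424, 2564, 2503 and 2154 in lateCD23int and 1972, 2530.1, 2142 and 2674 in lateCD23lo. Ppat, the amidotransferase that commits phosphoribosyl pyrophosphate to purines, was at normalized counts of 3079, 4635, 3935 and 3482 in prePB, 2509, 3368, 3415 and 3445 in early, 2467, 2368, 3029 and 3512 in lateCD23int and 2145, 4445, 4091 and 3939 in lateCD23lo. Library 1 was the lowest in prePB, early and lateCD23lo, and the groups overlapped.

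Gart, a trifunctional enzyme of the middle of the pathway, was measured at normalized counts of 2731, 4917, 5522 and 4937 in prePB, 2756, 4492, 3109.6 and 5598 in early, 1566, 2308, 4946 and 3962 in lateCD23int and 1415, 3287, 2033 and 3208 in lateCD23lo. Number 1 was again the lowest in each subpopulation, and the fold change was 0.56 ± 0.29 (SE; limma adjusted p = 0.482) in prePB against the other 3 and 0.71 ± 0.35 (SE; limma adjusted p = 0.498) in early against lateCD23lo. Pfas, which forms formylglycinamidine ribonucleotide, was lowest in mean in lateCD23int. Its values were 6886, 7244, 7670.1 and 8579 in prePB, 6689.6, 5701, 12572 and 10403 in early, 4962, 6985, 4624 and 6592 in lateCD23int and 6919.6, 7774, 8497 and 10897 in lateCD23lo. The fold change was 0.56 ± 0.22 (SE; limma adjusted p = 1) in early against lateCD23int and -0.56 ± 0.22 (SE; limma adjusted p = 0.75) in lateCD23int against lateCD23lo, and the groups overlapped in both.

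Adsl, the lyase used in both the path to inosine monophosphate and the path to AMP, had normalized counts of 2929.8, 6094, 5275 and 4693 in prePB, 3528, 4266, 3994 and 5152 in early, 2474, 3137, 3318 and 3835 in lateCD23int and 2773, 4237, 4238 and 4693 in lateCD23lo. The prePB libraries 2 and 3 were above the libraries of all other subpopulations, and the difference in early against lateCD23int was 0.41 ± 0.22 (SE; limma adjusted p = 1). Paics, the bifunctional enzyme next in the pathway after Gart and Pfas, had mean normalized counts of 8733 ± 651 in prePB, 8812 ± 815 in early, 9382 ± 964 in lateCD23int and 10013 ± 1758 in lateCD23lo. Atic, which closes the inosine monophosphate ring, was at a mean of 1821 ± 579.9 in prePB, 1809 ± 676 in early, 1465 ± 569 in lateCD23int and 1259.7 ± 343 in lateCD23lo (SD, n = 4). Paics (chromosome 5, 76951307 to 76967509, plus strand) and Ppat (chromosome 5, 76913249 to 76951578, minus strand) overlap at their 5′ ends, and since the library kit does not mark strand, reads in the overlap cannot be told apart.

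On the way to guanine nucleotides, Impdh2 was the main inosine monophosphate dehydrogenase by level, with normalized counts of 4227, 7397, 7165 and 7485 in prePB, 4223, 6423, 6091 and 6603 in early, 4102, 4878, 5231 and 5691 in lateCD23int and 2565, 5105, 5075 and 5653 in lateCD23lo. The prePB libraries 2 to 4 lay above all other libraries, number 1 was the lowest of each subpopulation, and the fold change in prePB against the other 3 was 0.36 ± 0.20 (SE; limma adjusted p = 0.518). Impdh1 had normalized counts of 2.15, 0.827, 37.0 and 39.7 in prePB, 1.05, 19.5, 1.92 and 38.8 in early, 7.96, 2.04, 39.4 and 13.0 in lateCD23int and 1.08, 0.936, 6.12 and 11.2 in lateCD23lo. Each of prePB, early and lateCD23int held both a library at or under 3 reads and one at 38.8 normalized counts or more, and no difference between groups was detectable. Gmps, which aminates xanthosine monophosphate to GMP, had mean normalized counts of 4980.4 ± 859.7 in prePB, 5561 ± 818 in early, 4840.4 ± 352 in lateCD23int and 5559.9 ± 1712 in lateCD23lo (SD, n = 4).

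Of the 5 salvage genes and nucleoside kinases, 4 had a lower mean log2 value in early than in lateCD23lo. The sum of the group was 35702 ± 1818 in prePB, 33239 ± 6351 in early, 32950.5 ± 4793 in lateCD23int and 38776 ± 4618 in lateCD23lo (SD, n = 4). Dck, which phosphorylates deoxycytidine and other deoxynucleosides, had normalized counts of 6028, 5258, 4679 and 3059 in prePB, 6834, 4986, 5098 and 4792 in early, 6826, 6451, 5555 and 5294 in lateCD23int and 6818, 9156, 7665 and 7973 in lateCD23lo. The lateCD23lo libraries 2 to 4 were above every library of the other subpopulations, while the lateCD23lo library 1 was within their range. The log2 fold change was -0.46 ± 0.15 (SE; 95% confidence interval -0.78 to -0.13; limma adjusted p = 0.254) in prePB against the other 3, -0.55 ± 0.19 (SE; 95% confidence interval -0.94 to -0.16; limma adjusted p = 0.312) in early against lateCD23lo and -0.39 ± 0.19 (SE; limma adjusted p = 0.796) in lateCD23int against lateCD23lo. Without the prePB library 4, the fold change of Dck in prePB against the other 3 was -0.26. Hprt had mean normalized counts of 7177 ± 242 in prePB, 7024 ± 1436 in early, 7076 ± 1436 in lateCD23int and 8113 ± 1116 in lateCD23lo. Adk, which phosphorylates adenosine, had a mean of 2573 ± 650.0 in prePB, 2406 ± 371 in early, 2553 ± 362 in lateCD23int and 2654 ± 546 in lateCD23lo (SD, n = 4). Both were highest in mean in lateCD23lo, with fold changes in early against lateCD23lo of -0.22 ± 0.17 (SE; limma adjusted p = 0.682) and -0.13 ± 0.20 (SE; limma adjusted p = 0.869).

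The nucleoside diphosphate kinases Nme1 and Nme2 are neighbours on chromosome 11 with similar sequences, and the reads they share were divided between them by RSEM. Nme1 was at normalized counts of 19860.3, 17722, 19337 and 21066 in prePB, 17805, 13059, 23181 and 14799 in early, 17842, 17112, 11975 and 17481 in lateCD23int and 16017, 18219.9, 20843 and 20818 in lateCD23lo. Nme2 was at normalized counts of 1369, 1551, 1746 and 2134 in prePB, 762, 1524, 1316 and 1079.8 in early, 1075, 913, 1095 and 1667 in lateCD23int and 711, 1188, 1129.5 and 1499 in lateCD23lo. Of the prePB libraries, all 4 were above all but 3 of the other 12 for Nme2. The fold change was 0.57 ± 0.26 (SE; 95% confidence interval 0.01 to 1.12; limma adjusted p = 0.578) in prePB against early and 0.57 ± 0.22 (SE; limma adjusted p = 0.323) in prePB against the other 3. For Nme1 these fold changes were 0.21 and 0.18, with adjusted p-values of 0.801 and 0.657.

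**Figure D3:**
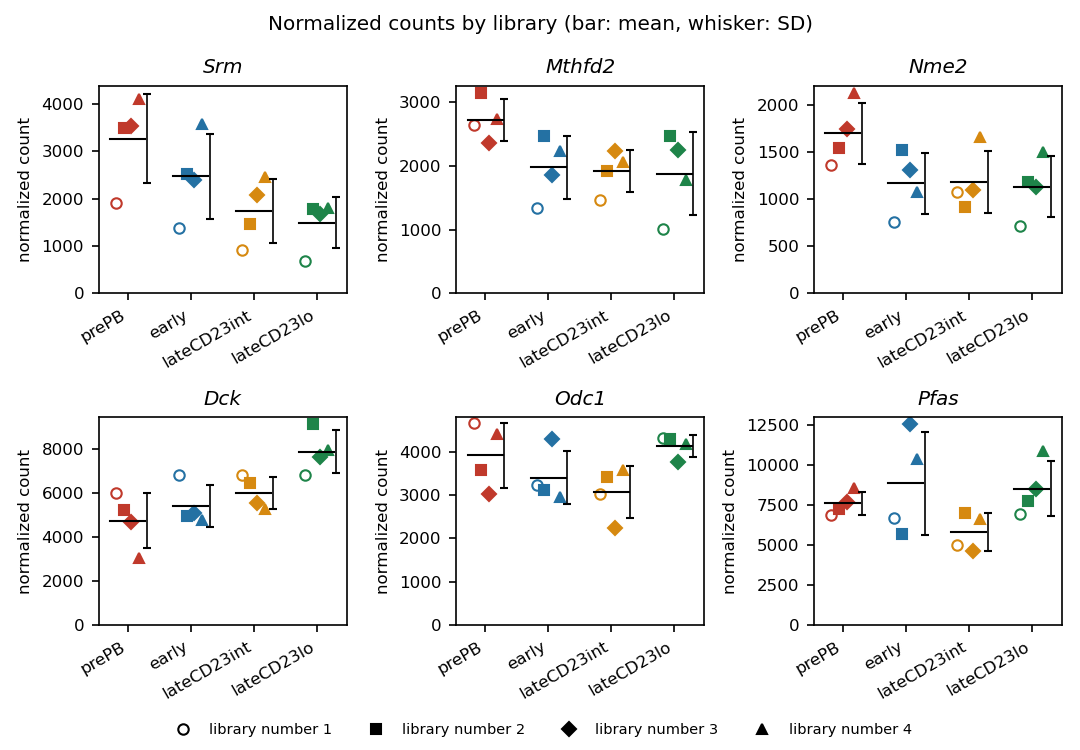
Normalized counts of 6 of the genes in each library, by subpopulation, with the mean (line) and SD (bar) of the 4 libraries and open symbols for number 1. Srm descends from prePB to lateCD23lo, Mthfd2 and Nme2 are highest in mean in prePB, Dck is highest in mean in lateCD23lo, and for Odc1 the lateCD23lo libraries lie above those of lateCD23int.

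The 3 genes of serine synthesis summed to normalized counts of 10787 ± 2588 in prePB, 9371 ± 2097 in early, 9003 ± 2160.2 in lateCD23int and 8481 ± 1503 in lateCD23lo (SD, n = 4). All 3 were higher in prePB than in early and than in the mean of the other 3, with none called. Phgdh, the first enzyme, had normalized counts of 1852, 5768, 5325 and 5927 in prePB, 2331, 5099, 2614 and 5354 in early, 2146, 2597, 5229 and 5762 in lateCD23int and 1563, 3675, 2832 and 2255 in lateCD23lo. The prePB library 1 was as low as the low libraries of the other subpopulations, while libraries 2 to 4 were near the highest of early and lateCD23int. The fold change in prePB against the other 3 was 0.44 ± 0.33 (SE; limma adjusted p = 0.652). The aminotransferase Psat1 was at a mean of 4719 ± 774 in prePB, 4400.3 ± 722 in early, 3832 ± 576 in lateCD23int and 4406 ± 532 in lateCD23lo. The phosphatase Psph was at a mean of 1349.9 ± 220.0 in prePB, 1121 ± 154 in early, 1237 ± 258 in lateCD23int and 1494 ± 366 in lateCD23lo (SD, n = 4). In prePB against the other 3, the log2 fold changes of Psat1 and Psph were 0.16 and 0.091.

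Folate one-carbon metabolism had 1 direction in all 5 genes in 4 of the 5 comparisons. All 5 were higher in prePB than in early and than in the mean of the other 3, and all 5 were higher in lateCD23int and in early than in lateCD23lo. None was called. Their sums were 11752 ± 3314 in prePB, 9649 ± 3582 in early, 8716 ± 3209 in lateCD23int and 6622 ± 1334 in lateCD23lo (SD, n = 4), and the median log2 fold change of the 5 was 0.53 in prePB against the other 3 and 0.51 in early against lateCD23lo. Mthfd2, the mitochondrial methylenetetrahydrofolate dehydrogenase, had normalized counts of 2632, 3145, 2359.5 and 2727 in prePB, 1334, 2469.7, 1853 and 2235 in early, 1461, 1924, 2232 and 2065 in lateCD23int and 1012, 2468, 2252 and 1776 in lateCD23lo. The prePB libraries 1, 2 and 4 were above every library of the other subpopulations, and the fold change was 0.53 ± 0.21 (SE; 95% confidence interval 0.10 to 0.97; limma adjusted p = 0.338) in prePB against the other 3 and 0.49 ± 0.25 (SE; limma adjusted p = 0.625) in prePB against early.

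Shmt2, the mitochondrial serine hydroxymethyltransferase, was at normalized counts of 809, 2777, 3154 and 3105 in prePB, 841, 2347, 1333 and 2934 in early, 569, 1082, 2605 and 2249 in lateCD23int and 637, 1234, 906 and 999 in lateCD23lo. Each of the other subpopulations held libraries below and above the highest of lateCD23lo. The cytosolic Shmt1 was at normalized counts of 1385, 3508, 3304 and 3545 in prePB, 1947, 3156, 1401 and 3594 in early, 711, 1259, 2582 and 2638 in lateCD23int and 986, 1813, 1534 and 1701 in lateCD23lo. The fold changes in early against lateCD23lo were 0.86 ± 0.50 (SE; limma adjusted p = 0.558) for Shmt2 and 0.68 ± 0.41 (SE; limma adjusted p = 0.573) for Shmt1.

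Mthfd1, the trifunctional cytosolic enzyme, had normalized counts of 1133, 2304, 2937 and 3659 in prePB, 1142, 2556, 1795 and 3179.7 in early, 1826, 1359, 3659 and 2098 in lateCD23int and 1678, 1227, 1445 and 1361 in lateCD23lo. Mthfd1l, its mitochondrial relative that releases formate, had normalized counts of 981, 1327, 761 and 1456 in prePB, 568, 1126, 1152 and 1634 in early, 815, 1164, 1321 and 1245 in lateCD23int and 523, 1282, 906 and 747 in lateCD23lo. The subpopulations overlapped for both, and the fold changes in prePB against the other 3 were 0.34 ± 0.29 (SE; limma adjusted p = 0.691) and 0.15 ± 0.26 (SE; limma adjusted p = 0.866).

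In the methyl cycle, Mat2a, which makes S-adenosylmethionine, was at normalized counts of 6539, 7230.4, 7077 and 6195 in prePB, 4983, 6594, 4988 and 6918 in early, 5874, 7369.8, 6058 and 6485 in lateCD23int and 5004, 6664, 6219 and 5555 in lateCD23lo. The prePB and early libraries overlapped, and the fold change was 0.22 ± 0.15 (SE; limma adjusted p = 0.745). Ahcy, which removes S-adenosylhomocysteine, had mean normalized counts of 1607 ± 559 in prePB, 1223 ± 260.3 in early, 1319.6 ± 353 in lateCD23int and 1106 ± 209.5 in lateCD23lo (SD, n = 4), and number 1 was the lowest library of each subpopulation. Both genes were higher in mean in prePB than in each of the other 3.

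For 5 pairs of genes with related functions, the share of the first gene in the sum of both was computed on counts per transcript length. Prps1 made up 77.6% to 88.4% of Prps1 and Prps2 over the 16 libraries, Nme1 made up 73.2% to 88.1% of Nme1 and Nme2, and Impdh1 made up 0.00799% to 0.536% of Impdh1 and Impdh2. The lengths used were 3181 bases for Nme1 and 1012 for Nme2, and without the division by length the Nme1 share was 89.6% to 95.9%. Mthfd1l took 18.5% to 47.9% of Mthfd1 and Mthfd1l. The cytosolic Shmt1 took 44.3% to 65.0% of Shmt1 and Shmt2. In lateCD23int the Shmt1 share was 49.99, 48.2, 44.3 and 48.4%, and in lateCD23lo it was 55.4, 54.1, 57.6 and 57.7%. These libraries did not overlap, and the means were 47.7 ± 2.45 and 56.2 ± 1.76% (SD, n = 4). The 2-sided exact permutation test gave p = 0.0286, the smallest p that 4 against 4 libraries allow, and p = 0.571 after adjustment over the 20 tests of shares, so this difference did not pass either, nor did any of the other 19.

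Of 91 further genes of these pathways, 72 were tested, and 1 passed the test. Ada, the adenosine deaminase that turns adenosine and deoxyadenosine into inosine and deoxyinosine, was lower in early than in lateCD23lo, with a log2 fold change of -1.08 ± 0.19 (SE; 95% confidence interval -1.47 to -0.68; limma adjusted p = 0.013), and the F test over the 4 subpopulations gave an adjusted p of 0.0175. Its normalized counts were 3519.8, 3387, 2811 and 1973 in prePB, 3342, 2224, 3263 and 2570.3 in early, 4861, 4009, 3769 and 4118 in lateCD23int and 6157, 5320.4, 6861 and 5478 in lateCD23lo. Every lateCD23lo library was above every library of the other 3 subpopulations, and those of lateCD23int lay between lateCD23lo and early without overlap. The call was lost without the early library 4 and without the lateCD23lo library 3 (limma adjusted p = 0.0594 and 0.0682). With edgeR and DESeq2 the adjusted p of Ada was 0.0193 and 2.9e-05.

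By list, the genes called in early against lateCD23lo were 1 of 23 tested genes of purine and pyrimidine metabolism (Ada), 0 of 13 deoxynucleotide genes, 0 of 9 other polyamine genes, 0 of 18 folate and methyl genes and 0 of 9 genes of the amino acid response. The share of all tested genes called by limma was 0.28% in early against lateCD23lo and 0.408% in the F test. None of the 72 was called by limma in the 4 other comparisons, where it called 0.008% to 0.312% of all tested genes. In prePB against the other 3, Aprt had an adjusted p of 0.0602 in edgeR and 0.00349 in DESeq2. At an unadjusted p under 0.05 there were 6, 4, 9 and 16 of the 72 in prePB against early, early against lateCD23int, lateCD23int against lateCD23lo and prePB against the other 3, and the number in early against lateCD23lo was 14. Over all tested genes the shares at this threshold were 8.58%, 3.71%, 6.28%, 11.1% and 10.3% in the same order. The median log2 fold change of the 13 deoxynucleotide genes, which include the ribonucleotide reductase subunits and thymidylate synthase, was -0.32 in early against lateCD23lo, with 3 of 13 higher in early. The 18 folate and methyl genes had a median of 0.23 there, with 12 higher. Aprt, which recycles adenine, had the lowest p in prePB against the other 3, with normalized counts of 1959, 1738, 2296 and 2309 in prePB, 1201, 1174, 1637 and 1458 in early, 1099.7, 1175, 1245 and 1428 in lateCD23int and 983, 1327, 1561 and 1411 in lateCD23lo. All prePB libraries were above all others, and the fold change was 0.67 ± 0.15 (SE; limma adjusted p = 0.0719). Dut, the dUTPase that keeps uracil out of DNA, had normalized counts of 5095, 4909.8, 4463 and 4496 in prePB, 4715, 4158, 5073 and 4204 in early, 4403, 5450.3, 3593 and 5349 in lateCD23int and 4981, 8422, 6762 and 7136 in lateCD23lo. It had the lowest p of the 72 in lateCD23int against lateCD23lo, at -0.53 ± 0.17 (SE; limma adjusted p = 0.699).

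The libraries of number 1 stood apart for these genes. They held the lowest value of their subpopulation in 64.7% of the 136 combinations of member and subpopulation, against 31.04% over all tested genes, and number 4 held the highest in 44.1%, against 22.8%. For 12 of 34 members (Srm, Cad, Umps, Ctps, Gart, Adsl, Atic, Impdh2, Phgdh, Psat1, Shmt2 and Ahcy) number 1 was the lowest library in all 4 subpopulations. Sms and Dck went the other way, with number 1 as the highest library in 3 of 4. Split by library number and subpopulation, the variance of log2 values of a member had a median share of 44.4% for number, 22.5% for subpopulation and 31.2% for the rest, and over all tested genes these medians were 21.8%, 21.3% and 51.4%. Srm had 51.8% for number and 44.4% for subpopulation, while Dck had 18.2% and 58.8% and Hprt 0.546% and 15.4%. The labels do not say what the numbers stand for. With number 1 left out in all subpopulations, limma called 0 members in each comparison.

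The spread of a member between libraries went with the base composition of its transcript. Over the 34 genes, the GC content, the share of G and C bases in the transcript, and the SD of the log2 values had a Spearman rho of 0.72, given as a description, since the genes share the same 16 libraries. The 17 GC-rich members (49.8 to 59.8% GC) had a median SD of 0.54, and the 17 GC-poor members (39.0 to 49.6%) had 0.32. The contrast can be seen in 120 bases from the middle of the longest coding exon of members at both ends of this range, Cad and Shmt2 with high GC content and Gmps and Hprt with low GC content, printed 5′ to 3′ on the strand of the gene with G and C in capitals (GRCm38, GENCODE vM21).
Cad (exon 18 of 44, chr5:31067464-31067583, plus strand): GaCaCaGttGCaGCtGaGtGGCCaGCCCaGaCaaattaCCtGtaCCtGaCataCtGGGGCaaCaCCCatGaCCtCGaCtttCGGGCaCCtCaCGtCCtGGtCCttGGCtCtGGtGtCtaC
Shmt2 (exon 4 of 12, chr10:127520012-127520131, minus strand): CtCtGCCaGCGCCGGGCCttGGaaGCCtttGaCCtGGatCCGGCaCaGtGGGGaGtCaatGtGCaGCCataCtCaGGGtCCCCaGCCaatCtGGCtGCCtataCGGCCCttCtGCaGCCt
Gmps (exon 6 of 16, chr3:63990192-63990311, plus strand): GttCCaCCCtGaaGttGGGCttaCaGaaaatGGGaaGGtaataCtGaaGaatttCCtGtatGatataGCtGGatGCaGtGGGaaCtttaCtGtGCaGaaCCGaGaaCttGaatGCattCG
Hprt (exon 3 of 9, chrX:53002120-53002239, plus strand): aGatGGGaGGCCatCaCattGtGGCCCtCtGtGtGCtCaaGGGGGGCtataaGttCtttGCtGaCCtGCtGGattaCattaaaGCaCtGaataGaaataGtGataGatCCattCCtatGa

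A GC tilt was computed for each library from all tested genes, as the median deviation of genes in the highest 10% of GC content minus that of genes in the lowest 10%, on the log2 scale. It was -0.35, 0.33, 0.56 and 0.82 in the prePB libraries, -0.43, 0.60, -0.24 and 0.45 in early, -0.61, -0.30, 0.69 and 0.43 in lateCD23int and -0.23, -0.0053, -0.38 and -0.31 in lateCD23lo. All lateCD23lo libraries and all libraries of number 1 were below 0. The slope of a member on this tilt had a median of 0.99 over the GC-rich and 0.0475 over the GC-poor members. In prePB against the other 3, 17 of 17 GC-rich members were higher, with a median of 0.34, and 10 of 17 GC-poor members, with a median of 0.16. In early against lateCD23lo, the medians were 0.48 and -0.00561, and in lateCD23int against lateCD23lo they were 0.24 and -0.14.

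After the values of each library were corrected for transcript GC content and length, the median of the 34 members was 0.21 in prePB against the other 3 and 0.084 in early against lateCD23lo, with 27 and 21 members higher in the first group. In prePB against the other 3, 13 of 17 GC-rich members were then higher, with a median of 0.23, and 14 of 17 GC-poor members, with a median of 0.21. In early against lateCD23lo the corrected medians were 0.28 and 0.00541. The corrected fold change of Srm in prePB against the other 3 was 0.66, and those of Dck, Nme2 and Mthfd2 were -0.39, 0.45 and 0.51. No member was called in any comparison with the correction. The members also moved together: over the 561 pairs of members the median Pearson r across the 16 libraries was 0.30, with 0.57 among GC-rich and 0.22 among GC-poor members and 0.36 after the correction, and the first principal component held 65.2% of the variance. These correlations share the libraries, their depth and their base composition.

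**Figure D4:**
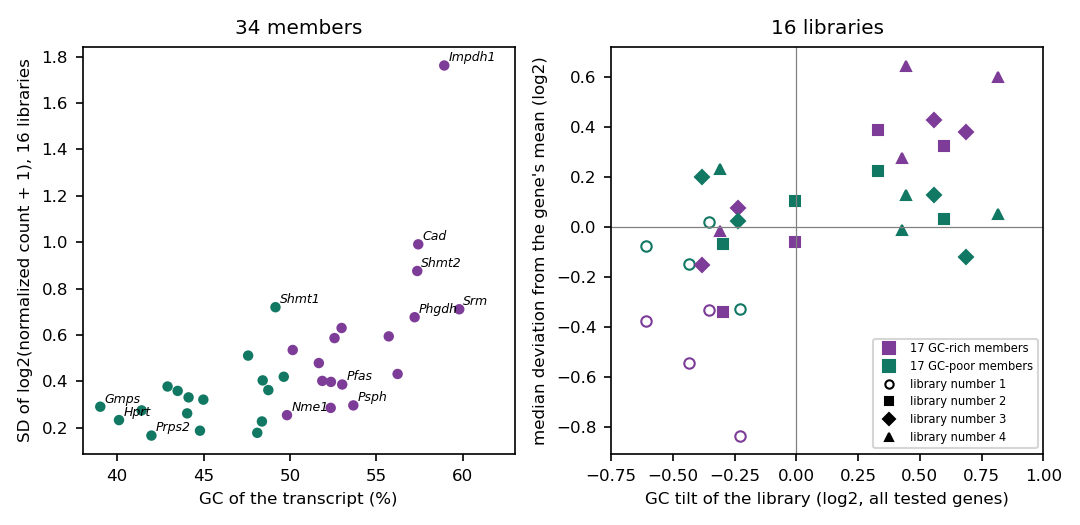
Left, GC content of the transcript (%) against the SD of log2(normalized count + 1) over 16 libraries for the 34 genes, with the 17 GC-rich members in purple and the 17 GC-poor members in green. Right, GC tilt of each library against the median deviation (log2) of both sets of 17, where the purple points climb from lower left to upper right and the green points stay between -0.33 and 0.23.

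Myc itself was measured at normalized counts of 2300.0, 4165, 4411 and 4417 in prePB, 1183, 3503, 1760.3 and 3563 in early, 857, 1801, 3817 and 1839 in lateCD23int and 1528, 1698, 1282 and 1198 in lateCD23lo. Its mean was highest in prePB and lowest in lateCD23lo (3823 ± 1022 and 1427 ± 229, SD, n = 4), and no comparison of Myc was called. The relation of Myc to 4 members that are widely cited as its targets or as markers of one-carbon use, Odc1, Cad, Nme1 and Mthfd2, was tested over the 16 libraries on log2 values, with permutation p-values adjusted over the 4 genes. All 16 libraries were exchanged freely in these permutations, which did not allow for subpopulation or library number. Mthfd2 rose with Myc (Pearson r = 0.69, permutation p = 0.00255, adjusted p = 0.0102; Spearman rho = 0.74, permutation p = 0.00181, adjusted p = 0.00724). Cad had r = 0.54 (permutation p = 0.0302, adjusted p = 0.0603) and rho = 0.49 (permutation p = 0.0548, adjusted p = 0.11). For Odc1, r was -0.27 (permutation p = 0.316, adjusted p = 0.316) and rho was -0.14 (adjusted permutation p = 0.602). For Nme1, r was -0.33 (permutation p = 0.209, adjusted p = 0.278) and rho was -0.16 (adjusted permutation p = 0.602).

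Without the prePB libraries 3 and 4, the 2 farthest from the median of Myc, r was 0.66 for Mthfd2 (adjusted permutation p = 0.0385), 0.53 for Cad (0.0717), -0.59 for Nme1 (0.0474) and -0.36 for Odc1 (0.201). Within the 4 libraries of prePB, early, lateCD23int and lateCD23lo, in this order, r was 0.073, 0.96, 0.94 and -0.034 for Mthfd2, 0.93, 0.92, 0.98 and -0.46 for Cad, -0.11, -0.71, -0.85 and -0.75 for Nme1 and -0.62, -0.47, -0.58 and 0.56 for Odc1. Within the libraries of numbers 1 to 4, r was 0.55, 0.75, 0.47 and 0.94 for Mthfd2, -0.32, 0.74, 0.62 and 0.61 for Cad, 0.40, -0.44, -0.61 and -0.25 for Nme1 and 0.94, -0.56, -0.77 and -0.18 for Odc1. On deviations from the number means, r was 0.56 for Mthfd2 (adjusted permutation p = 0.0777) and rho was 0.64 (adjusted permutation p = 0.0341). On deviations from the group means, which leave out differences between subpopulations, r was 0.52, 0.60, -0.69 and -0.50 for Mthfd2, Cad, Nme1 and Odc1. The adjusted permutation p-values were 0.0496, 0.0285, 0.0129 and 0.0501. Permutations of both kinds of deviations did not allow for the means taken out, so these p-values tend to be too low. Myc also went with the GC tilt of the libraries (r = 0.89 over 16 libraries, as a description). After the GC and length correction, r was 0.64 for Mthfd2 (adjusted permutation p = 0.0283), 0.27 for Cad (0.321), -0.51 for Nme1 (0.0648) and -0.50 for Odc1 (0.0648). After rescaling of the libraries to the same total, r was 0.77 for Mthfd2, 0.60 for Cad, -0.065 for Nme1 and -0.0092 for Odc1.

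**Figure D5:**
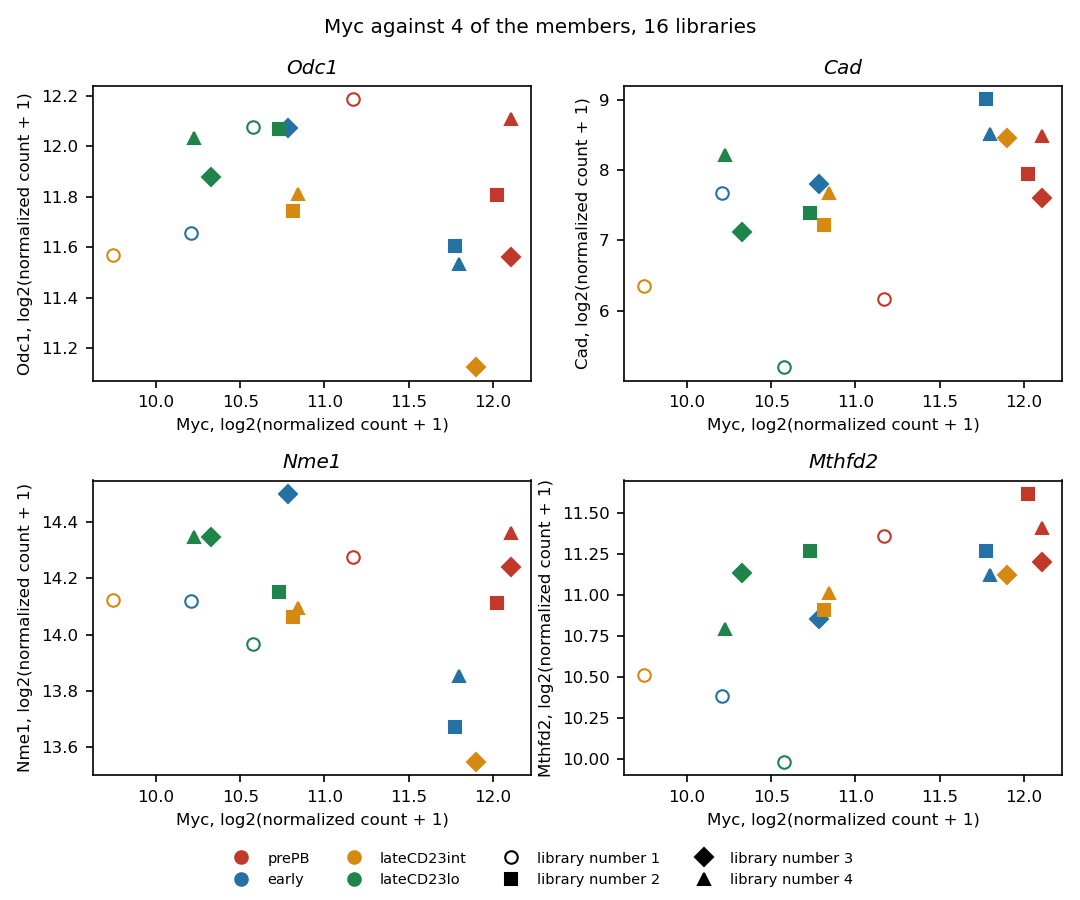
Myc against Odc1, Cad, Nme1 and Mthfd2 in the 16 libraries, both as log2(normalized count + 1), coloured by subpopulation and with open symbols for number 1. Mthfd2 climbs with Myc (r = 0.69), and Cad, Odc1 and Nme1 have an r of 0.54, -0.27 and -0.33.

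cMyc and its partner Max bind the E-box CACGTG, which reads the same on both strands, and the promoters of the members were searched for it. RefSeq promoters (GRCm38.p6), from 250 bases before to 50 after the start, were matched for 31 of the 34 members, and 5 of the 31 (16.1%) held the motif: Sms, Paics, Atic, Impdh2 and Nme1. Over all genes with an entry the share was 8.09%, and over all 32851 entries it was 7.15%. Such a match is a description of the letters and not a site of binding. In the promoters of Atic and Nme1 the motif began 7 and 18 bases before the start, and in that of Impdh2 110 bases before it. These 3 are printed here 5′ to 3′ on the strand of the gene, with the E-box in capitals, because the motif lies nearest to the start in them.
Nme1 (chr11:93968223-93968522, minus strand): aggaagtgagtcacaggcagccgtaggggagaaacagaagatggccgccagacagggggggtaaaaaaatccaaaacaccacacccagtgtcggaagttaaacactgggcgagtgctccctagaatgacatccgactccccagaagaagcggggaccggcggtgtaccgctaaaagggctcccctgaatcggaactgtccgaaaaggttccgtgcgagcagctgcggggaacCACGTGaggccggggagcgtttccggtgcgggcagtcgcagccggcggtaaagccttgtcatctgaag
Impdh2 (chr9:108560186-108560485, plus strand): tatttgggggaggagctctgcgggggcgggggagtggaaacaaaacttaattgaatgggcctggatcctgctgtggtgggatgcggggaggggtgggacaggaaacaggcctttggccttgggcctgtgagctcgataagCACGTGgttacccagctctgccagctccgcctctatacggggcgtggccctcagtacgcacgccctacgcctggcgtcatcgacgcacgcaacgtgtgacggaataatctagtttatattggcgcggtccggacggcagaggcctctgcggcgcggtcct
Atic (chr1:71556906-71557205, plus strand): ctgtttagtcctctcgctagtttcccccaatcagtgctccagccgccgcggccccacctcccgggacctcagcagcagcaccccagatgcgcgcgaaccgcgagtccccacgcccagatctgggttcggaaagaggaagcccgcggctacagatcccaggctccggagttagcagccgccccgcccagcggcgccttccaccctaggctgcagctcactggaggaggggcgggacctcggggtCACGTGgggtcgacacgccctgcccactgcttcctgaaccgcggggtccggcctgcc
Of the 5 members with the motif, only Nme1 was among the genes whose relation to Myc was tested (r = -0.33). Whether the motif goes with the relation to Myc was not tested.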

How the data were processed

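RNA was extracted from the sorted cells with the RNeasy Micro kit, libraries were made with a NEBNext single cell and low input kit, which does not mark strand, and sequencing was on an Illumina instrument. The authors' processing notes name Trimmomatic 0.36, STAR 2.5.2a, RSEM 1.2.31, DESeq2 1.20.0, R 3.5.1 and the build GRCm38. The deposited values are a signal: gene counts that the authors divided by 1 size factor per library. No column of the table was left unused. Whole reads were recovered from the steps between values, with 100% of values within 0.001 of a whole number of reads (a tolerance widened in proportion for high counts), and these reads were used for edgeR and DESeq2 only. In the lateCD23int library 1 the step was 0.995, so close to 1 that the recovery is less certain there; it was treated like the others.

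The main test was limma 3.58.1 (R 4.3.3) with a mean-variance trend on log2(normalized count + 1), over genes with a mean normalized count of 10 or more, with all 16 libraries and 4 subpopulations in 1 fit and Benjamini-Hochberg adjustment over all 12505 genes. Fold changes are on this scale, which understates changes of low genes, and contrasts of prePB with the other 3 use the mean of the 3 group means. Shares of paralogs were compared by 2-sided exact permutation of 4 against 4 libraries, and relations to Myc by 100000 permutations (scipy 1.17.1). Alternatives were edgeR 4.0.16, DESeq2 1.42.0, pseudocounts of 0.5 and 5, other filters, scalings, a fit without trend, a replicate block and each library left out. The GC and length correction, the fits without number 1, the deviations from group means and the shares without length were chosen after seeing the data. Scripts were tested on simulated data.

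Members and lists were chosen with earlier results of these data known. Values per library are given for the committed enzymes (Odc1, Amd1, Cad, Ppat, Impdh2, Phgdh, Shmt2, Mthfd2 and Mat2a), for the 3 members with the lowest p in each comparison and for both genes of each paralog pair; of the other pathway genes, those called are named, and otherwise the 1 with the lowest p in a comparison, of which Aprt and Dut are described. Transcript GC content and length are those of GENCODE vM21 (GRCm38).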

Additional observations from a re-analysis of the deposited data

Results flagged for a closer look

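In 12 of 136 combinations of member and subpopulation, 1 library stood apart: its gap to the nearest of the other 3, divided by the range of the 4, was above Dixon's critical value at the 95% level. By chance about 1 in 20 groups holds such a library. In 11 of the 12 the library was the lowest, and 6 of the 12 were the prePB library 1. For each gene below, the normalized count of that library is given against the range of the other 3, followed by the ratio of gap to range.

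The prePB library 1 was low for Ctps (962 against 1908 to 2063; 0.859), Impdh2 (4227 against 7165 to 7485; 0.902) and Gmps (3706 against 5294 to 5588; 0.844), and for the serine and folate genes Phgdh (1852 against 5325 to 5927; 0.852), Shmt1 (1385 against 3304 to 3545; 0.888) and Shmt2 (809 against 2777 to 3154; 0.839). Its GC tilt was -0.35, while those of the other prePB libraries were 0.33 to 0.82; the part of the tilt in these values was not tested. The lateCD23lo library 1 was low for Srm (688 against 1681 to 1798; 0.895) and Umps (2836 against 5349 to 5705; 0.876). The early library 1 was low for Ppat (2509 against 3368 to 3445; 0.917) and high for Dck (6834 against 4792 to 5098; 0.850). In lateCD23int, library 4 was low for Amd1 (2492 against 4057 to 4334; 0.850) and library 3 for Nme1 (11975 against 17112 to 17842; 0.875). None of the 20 combinations of a paralog share and a subpopulation held such a library.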

How the results depend on the processing

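With a replicate block, a term for the library number, 1 member was called by limma and by edgeR in early against lateCD23lo, in prePB against the other 3 and in the F test, and each time it was Srm (limma adjusted p = 0.0387, 0.0028 and 0.00235). With the GC and length correction and the block together, it was 1 in prePB against the other 3 (Srm) and 2 in the F test (Srm and Dck). The block changed no other call of a member. At an unadjusted p under 0.05, limma with the block gave 11 members in prePB against the other 3, against 4 without it. In early against lateCD23lo it gave 8 against 1. In prePB against early, early against lateCD23int and lateCD23int against lateCD23lo it gave 3, 3 and 4, against 1, 1 and 2. The share of all tested genes at this threshold was not computed with the block. Whether the numbers pair the libraries is not given in the labels, and the correlations did not settle it. Over all tested genes, the best-correlated library had the same number for 10 of 16 libraries, and the number expected by chance was not computed. The correlation of same-numbered deviations over these genes ranged from 0.066 to 0.17 for number 1 and down to -0.13 for number 3. Over the members alone it was above 0.1 in 6 of 6 pairs for number 1 (0.43 to 0.79) and for number 4 (0.11 to 0.82), but in 3 of 6 pairs for number 2 (-0.80 to 0.81) and for number 3 (-0.86 to 0.78). The replicate block for the relation of Myc to Mthfd2, as deviations from the number means, gave r = 0.56 (adjusted permutation p = 0.0777), so the call by Pearson's r was lost, and rho = 0.64 (adjusted permutation p = 0.0341). Both p-values tend to be too low, since the permutations did not allow for the number means taken out. Paired exact tests of the shares, with a replicate block, cannot give a p below 0.125 and so could call none of the 20.

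The count of members called stayed at 0 under the other pseudocounts, filters, scalings and tools and without each library. The median of the members in lateCD23int against lateCD23lo was -0.071 without the 4 libraries of number 1 and ranged from -0.159 to 0.111 as 1 library was left out, below 0 without the lateCD23int library 4 or the lateCD23lo library 1; in early against lateCD23lo the range was -0.0712 to 0.213, below 0 only without the lateCD23lo library 1. Among the 170 uncalled fold changes of single members, 63 changed sign when some library was left out, 15 in other planned settings and 31 in settings chosen after seeing the data. Ada lost its call in early against lateCD23lo without the trend of the variance (-1.08, adjusted p = 0.0744) and without the early library 4 or the lateCD23lo library 3.

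For the relation to Myc, Cad and Nme1 had an adjusted permutation p under 0.05 on deviations from the group means (r = 0.60 and -0.69), with p-values that tend to be too low. The threshold was also passed by Nme1 without the 2 farthest libraries (-0.59) and by Cad after rescaling to the same total (0.597). Of the paralog shares, Prps1 in early against lateCD23lo was -0.0787 percentage points without the division by length. Leaving out 1 library turned the sign of uncalled share differences, in percentage points, over ranges of -0.0315 to 0.112 (Impdh1), -5.12 to 1.35 (Shmt1) and -5.35 to 2.88 (Mthfd1l) in prePB against early, -0.131 to 0.0582 (Impdh1), -1.29 to 3.70 (Nme1) and -3.76 to 2.53 (Mthfd1l) in early against lateCD23int, -1.55 to 1.89 (Prps1), -4.64 to 0.352 (Nme1) and -7.27 to 1.52 (Mthfd1l) in early against lateCD23lo, and -6.27 to 2.52 (Mthfd1l) in lateCD23int against lateCD23lo. Impdh1 was at or under 3 reads in 7 of 16 libraries, and the part of depth in its values was not tested.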
